A study of Caenorhabditis elegans with 2 samples.

Results

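Arginine tRNA genes of the worm Caenorhabditis elegans were examined for occupancy by RPC-1. This protein is the largest subunit of the polymerase that makes tRNAs, RNA polymerase III. The genes were the nuclear tRNA genes whose annotated product is tRNA-Arg in the RefSeq annotation of WBcel235 (ce11), with pseudogenes and the mitochondrial genome left out. There were 44 of them among 612 nuclear tRNA genes, and the 568 others are given beside them. Occupancy was measured by ChIP-seq, the sequencing of immunoprecipitated chromatin, in 1 group of 2 samples, labelled biological replicates 1 and 3. The animals were young adult hermaphrodites of strain JK1107, which carries glp-1(q224) III, and their RPC-1, from a stable transgene, had a GFP-FLAG tag at its C-terminus, which an anti-GFP antibody precipitated. Both samples carried the allele and the tag, and there was no other genotype or treatment to compare. The allele glp-1(q224) is temperature-sensitive for a receptor that germline stem cells need to proliferate, and the culture temperature is not given in the sources used here. Replicate 1 was sonicated in a Bioruptor and replicate 3 by microtip, so shearing and replicate cannot be told apart. Whole animals pool many cell types, and fewer cells using a gene cannot be told apart from less polymerase per cell.

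RNA polymerase III transcribes tRNA genes from promoters that lie inside the gene. Transcription factor TFIIIC recognises an A box near the 5′ end and a B box in the part that becomes the T arm, TFIIIB is placed upstream, and the polymerase stops at a run of T downstream. Arginine is an amino acid with many synonymous codons, written as CGN and as AGA and AGG. The tRNA with anticodon ACG has its first anticodon base deaminated to inosine, which lets it read CGT, CGC and CGA. The tRNAs with anticodons TCG and CCG pair with CGA and CGG, and those with TCT and CCT pair with AGA and AGG.

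The annotation gives no anticodons, so each was read from the gene sequence as the middle of a 7-base loop closed by a stem. There were 19 genes with ACG, 10 with TCG, 8 with TCT, 4 with CCT, 2 with CCG and 1 with GCG. A stem of 5 pairs was present in 38 of the 44 genes. In F49E7.t1 the best stem gave ATG, which is no arginine anticodon, and the gene was counted under TCG because TCG stands at the usual bases 34 to 36. The 44 genes held 19 distinct sequences. The 15 printed here include the commonest ACG form with its single-copy variants, the bound and unbound TCG forms that are compared with each other, and the forms of all genes without a peak in the IDR list. The other 4, among them the commonest TCG and TCT forms, are not shown. They are the RefSeq WBcel235 (ce11) sequence of the gene strand, 5′ to 3′. Capitals mark, in order, the A box where its pattern was found, the anticodon, and the B box where GTTCGANNC was found.
C14F11.t1: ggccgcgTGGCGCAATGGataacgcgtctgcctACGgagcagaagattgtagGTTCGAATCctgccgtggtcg
F12D9.t5: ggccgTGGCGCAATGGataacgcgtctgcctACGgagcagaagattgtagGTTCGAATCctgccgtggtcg
F42G10.t1: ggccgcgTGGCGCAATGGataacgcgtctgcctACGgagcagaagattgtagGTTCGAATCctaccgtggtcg
K01A12.t1: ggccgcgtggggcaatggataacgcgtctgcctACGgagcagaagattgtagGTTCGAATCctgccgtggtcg
F38E9.t2: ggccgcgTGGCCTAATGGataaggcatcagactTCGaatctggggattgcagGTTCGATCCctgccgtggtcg
C36C9.t2: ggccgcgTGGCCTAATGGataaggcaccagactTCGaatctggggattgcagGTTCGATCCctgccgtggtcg
F49E7.t1: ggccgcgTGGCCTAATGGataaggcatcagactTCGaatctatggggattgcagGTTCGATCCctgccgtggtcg
C34E11.t1: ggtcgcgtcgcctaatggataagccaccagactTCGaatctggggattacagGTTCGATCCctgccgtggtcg
F41D9.t4: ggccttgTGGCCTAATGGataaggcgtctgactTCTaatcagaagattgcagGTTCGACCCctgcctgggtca
F28H6.t1: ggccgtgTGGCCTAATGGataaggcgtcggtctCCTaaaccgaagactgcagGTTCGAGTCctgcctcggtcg
Y75D11A.t2: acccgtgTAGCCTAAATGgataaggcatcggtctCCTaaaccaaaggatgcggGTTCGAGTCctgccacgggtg
Y102E9.t1: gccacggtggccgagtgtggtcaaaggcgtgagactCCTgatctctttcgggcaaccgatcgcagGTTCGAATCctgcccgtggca
ZK380.t1: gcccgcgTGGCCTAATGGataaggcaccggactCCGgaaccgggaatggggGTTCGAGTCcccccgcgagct
Y46G5A.t1: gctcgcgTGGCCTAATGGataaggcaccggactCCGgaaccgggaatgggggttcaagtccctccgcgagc
W05B2.t1: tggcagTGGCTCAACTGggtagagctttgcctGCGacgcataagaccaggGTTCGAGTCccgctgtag
The first 4 have anticodon ACG and lie at X:6220070-6220142 (minus strand), X:8639225-8639295 (minus), X:10018425-10018497 (minus) and X:8623603-8623675 (plus). The next 4 have TCG and lie at X:16461477-16461549 (plus), X:1698674-1698746 (plus), X:1089400-1089474 (plus) and X:11806588-11806660 (minus). F41D9.t4 has TCT and lies at X:8381795-8381867 (minus). The CCT genes F28H6.t1, Y75D11A.t2 and Y102E9.t1 lie at X:14115691-14115763 (plus), X:1764254-1764327 (minus) and III:6726991-6727076 (minus). The CCG genes ZK380.t1 and Y46G5A.t1 lie at X:1629881-1629952 (minus) and II:12728756-12728826 (minus), and the GCG gene W05B2.t1 lies at III:10961850-10961917 (minus).

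Most arginine tRNA genes carried an RPC-1 peak, but a smaller share did than among the other tRNA genes. A gene was counted as bound when the summit of a peak in the IDR list lay within 250 bp of its body. The IDR list holds the peaks that passed a threshold on the irreproducible discovery rate, which asks how well peak ranks repeat between replicates. By this rule 36 of 44 arginine tRNA genes were bound (81.8%). Among all nuclear tRNA genes the share was 92.3% (565 of 612), and among the other tRNA genes it was 93.1% (529 of 568). In the list of replicate 1, 41 arginine genes had a summit within 250 bp (93.2%, against 94.6% of all tRNA genes). In the list of replicate 3, 36 did (81.8%, against 94.1% of all tRNA genes). Of the 930 IDR peaks of highest signal, summits lay at 33 arginine genes, while 89.5% of all tRNA genes had one. The arginine share was thus below that of all tRNA genes in both replicates, by little in the whole list of replicate 1, and in the IDR list made from both. In replicate 1, 5 of the 41 genes had no IDR summit, and their signals there were only 5.888 to 19.02. Among the 1860 strongest peaks of replicate 1, as many as the IDR list holds, summits lay at 35 arginine genes. The share of all tRNA genes at that depth is not given here. With 1 group and genes chosen by class, the difference was not tested.

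Summits in the IDR list and in both replicate lists were present at 35 genes, and K01A12.t1 had an IDR summit and a replicate 1 summit but none in replicate 3. Since IDR keeps peaks that repeat between these replicates, this overlap was largely set in advance. Of the 8 unbound genes, 5 had a summit in the replicate 1 list alone, 1 had a summit in the replicate 3 list alone, and 2 had none in either. The lists of the replicates hold 29914 and 30000 peaks, far more than the 1860 of the IDR list, and reach much lower signals.

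The signal value of a peak is the authors' own, relative to a control alignment that was not analysed here. Its scale differs between lists, so values are compared between genes within a list. The IDR list ranged from 54.3 to 24700, the replicate 1 list from 3.321 to 20647 and the replicate 3 list from 4.59 to 4146. The files hold no read counts, so the depth behind each value is unknown. Where a summit was present, the median IDR signal of arginine tRNA genes was 2910, with quartiles of 1335 and 3777 and a range of 58.23 to 4854. The other tRNA genes had a median of 2813, quartiles of 1744 and 4170, and a highest value of 14745. The median of the bound arginine genes was thus close to that of the others, with a lower lower quartile and no value near the top. With unbound genes given the lowest rank, the median percentile of arginine genes among the 612 was 41.1 in the IDR list, 39.1 in replicate 1 and 44.8 in replicate 3. The other tRNA genes had a median percentile of 50.4 in the IDR list, 50.6 in replicate 1 and 50.7 in replicate 3. No arginine tRNA gene was at 1 of the 100 strongest IDR peaks, and 7 were among the strongest 200.

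The 5 strongest arginine tRNA genes were 4 with anticodon ACG and 1 with CCT. F08G5.t1 (ACG; IV:12417926-12417998, minus strand, outside protein-coding genes) had a signal of 4854 in the IDR list, 3994 in replicate 1 and 890 in replicate 3. Its peak had rank 124 in the IDR list, and the gene had rank 86 among the tRNA genes. F12D9.t4 (ACG; X:8640794-8640866, minus strand, in an intron of stg-2, a gene of the stargazin family, on the same strand) had 4781, 3958 and 921.1. F09B9.t1 (ACG; X:10145156-10145228, plus strand, outside) had 4533, 3655 and 943.4, the highest replicate 3 value of all arginine tRNA genes. These 3 genes changed order between the replicates, and their values differed by far less than the range of the class. C14F11.t1 (ACG, outside) had 4413, 3582 and 871, and F28H6.t1 (CCT, outside) had 4147, 3442 and 726.9.

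**Figure D1:**
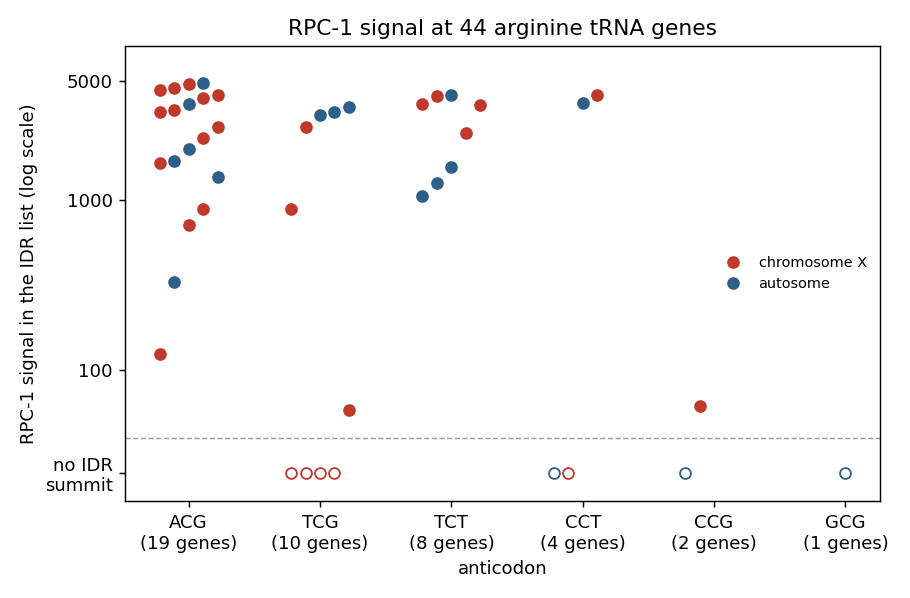
RPC-1 signal in the IDR list (log scale) at the 44 arginine tRNA genes by anticodon, with genes on X in red, genes on autosomes in blue and open circles below the dashed line for genes with no IDR summit. All 19 ACG and all 8 TCT genes had a summit, beside 92.3% of all nuclear tRNA genes. The bound genes of ACG spanned 123.8 to 4854.

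Bound genes were counted by anticodon, beside the 92.3% of all nuclear tRNA genes that were bound. All 19 ACG genes and all 8 TCT genes were bound. So were 6 of 10 TCG genes, 2 of 4 CCT genes and 1 of 2 CCG genes, while the GCG gene was not. Of the unbound TCG genes, 3 lie in 1 cluster, and differences between anticodons were not tested. The median signal of bound genes was 2667 for ACG (123.8 to 4854), 2907 for TCG (58.23 to 3488) and 3037 for TCT (1056 to 4117). These ranges overlapped widely, so the bound genes of the 3 large families were not set apart by their level. With unbound genes included, the median percentile was 51.6 for ACG, 57.1 for TCT, 37.1 for CCT and 13 for TCG in the IDR list. In replicate 1 the median percentiles were 50.8, 58.3, 38.4 and 13.4 in the same order, and in replicate 3 they were 49.3, 53.8, 37.3 and 12.3. TCT stood highest and TCG lowest of these 4 families in both replicates, and also in the IDR list, whose signal is that of the same samples pooled.

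The codon that matches each anticodon exactly was counted over the longest coding sequence of 20828 protein-coding genes. AGA was the commonest arginine codon (29.8%), followed by CGA (23.2%), CGT (20.9%), CGC (9.51%), CGG (9.15%) and AGG (7.44%). The 8 TCT genes, which match AGA, were 18.2% of the arginine tRNA genes and held 23.2% of their summed IDR signal. The 19 ACG genes were 43.2% of the genes and held 53.9% of the signal. The 10 TCG genes were 22.7% of the genes and held 14.4%. For CCT the shares were 9.09% of genes and 8.38% of signal, and for CCG they were 4.55% and 0.0657%. Of the anticodons with a bound gene, ACG and TCT thus held a larger share of the signal than of the genes, and TCG, CCT and CCG a smaller one. The GCG gene, the only exact match to CGC, had no IDR summit, and CGC is among the codons that the inosine of the ACG tRNA reads.

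The ACG family consisted of 2 sequences with many copies and 3 with a single copy. The commonest sequence, printed above for C14F11.t1, was carried by 10 genes, all on X and all bound, with a median signal of 3652. Among these identical genes the signal ran from 4781 at F12D9.t4 to 882.7 at T06H11.t3, a ratio of 5.42 in the IDR list and 6.09 in replicate 1. In replicate 3 the ratio of the highest to the lowest was 2.45, between F09B9.t1 and F09B9.t2. T06H11.t3 had 649.5 in replicate 1 and 455.8 in replicate 3, and was the gene with the largest change of percentile between replicates, from 17 to 44. Its summit was 16 bp from the gene in the IDR list but 81 and 78 bp away in the replicate lists, between it and T06H11.t2. Both genes lie in the same peak interval of 652 bp in the IDR list, on opposite strands and 220 bp apart in an intron of the potassium channel gene unc-58. T06H11.t2 had 4118, 3126 and 927.8, far above its neighbour in each list. The next lowest of the 10 in the IDR list was F09B9.t2 (in an intron of unc-115, which encodes an actin-binding protein, on the opposite strand), with 1636, 1317 and 385.3. Besides the genes with values here, this sequence was carried by C03A3.t1 (3944), T01C1.t1 (3359), K01A12.t3 and C18A11.t2.

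The second ACG sequence was carried by 6 autosomal genes, all bound, with a median of 1840. It had both the highest arginine tRNA gene, F08G5.t1, and a low one, F13G11.t1 (IV:14611307-14611379, outside), with 330.9, 259.2 and 58.7. The ratio of these identical genes was 14.7 in the IDR list, 15.4 in replicate 1 and 15.2 in replicate 3, the widest spread between bound genes of the same sequence. The other 4 had IDR signals of 3628 (M57.t1, in an intron of unc-33, a gene of neuronal growth), 1989, 1691 and 1360. The 13 ACG genes on X had a median of 3269 and the 6 on autosomes a median of 1840, with ranges of 123.8 to 4781 and 330.9 to 4854 that overlapped almost completely.

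The single-copy ACG genes showed how far near-identical genes differed. F42G10.t1 differs from the common X sequence by G64A, where positions count from 1 at the 5′ end of the gene and the common sequence's base comes first. It matched both box patterns and had 2667 in the IDR list, 2200 in replicate 1 and 509.2 in replicate 3, within the range of the common sequence in all 3 lists. K01A12.t1 differs by C11G, and its sequence no longer matched the A box pattern. Its signal was 123.8 in the IDR list and 29.74 in replicate 1, with no summit in replicate 3, the lowest of all ACG genes. It lies in a peak interval of 1204 bp that holds 3 summits, the strongest of which had 4362 at the cysteine tRNA genes K01A12.t5 and K01A12.t4, so its value comes from a minor summit within a broad peak. F12D9.t5 is 71 bases long, 2 edits from the common sequence, and its A box starts at base 6 rather than 8. Its nearest summit had 715.5 in the IDR list, 25 bp upstream, 401.7 in replicate 1, 24 bp upstream, and 121.4 in replicate 3, 87 bp beyond its 3′ end. Each value was below those of all 10 genes of the common sequence in its list. A summit of 5105 lay 237 bp away, nearer to the cysteine tRNA gene F12D9.t1.

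**Figure D2:**
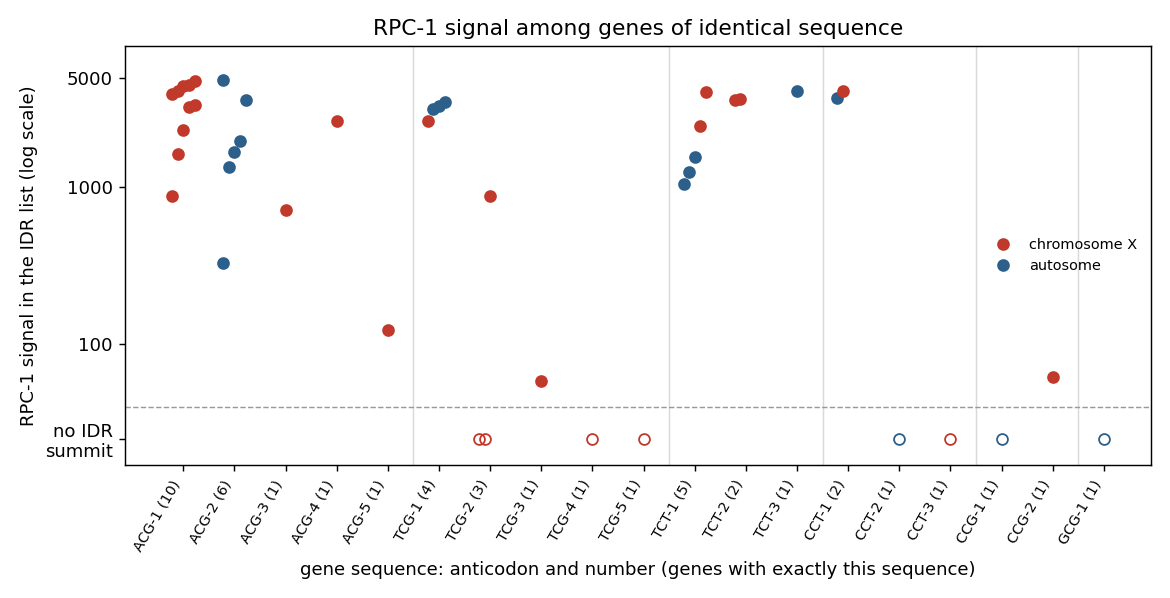
RPC-1 signal in the IDR list (log scale) for each of the 19 distinct gene sequences, named by anticodon and a number, with the number of genes of exactly that sequence in parentheses; genes on X are red, autosomal genes blue, and open circles had no IDR summit. The 6 identical genes of the second ACG sequence spread from 330.9 to 4854, while the 4 of the first TCG sequence lay between 2660 and 3488.

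The TCG family divided into 4 strongly bound genes and 6 with lower or no signal. The commonest TCG sequence was carried by 4 genes, 3 of them on autosomes, and all were bound at similar levels, F35H8.t1 with 3291 and F56F3.t1 with 3154 between the ends. The highest was F14B4.t1, in an intron of F14B4.1 on the opposite strand, with 3488 in the IDR list, 2777 in replicate 1 and 736 in replicate 3. The lowest was F17A2.t1, outside protein-coding genes on X, with 2660, 2170 and 530.8. The ratio of highest to lowest was 1.31 in the IDR list, 1.28 in replicate 1 and 1.42 in replicate 3 (in replicate 3 the lowest of the 4 was F56F3.t1, with 516.5). The other 6 TCG genes all lie on X. They had IDR signals of 885.6 (F38E9.t2) and 58.23 (C34E11.t1), and the remaining 4 had no IDR summit.

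F38E9.t2, F49E7.t2 and F49E7.t3 have exactly the same gene sequence but different signal. F38E9.t2, in an intron of the metalloprotease gene nas-39 on the same strand, had 885.6 in the IDR list, 719.9 in replicate 1 and 184.3 in replicate 3. F49E7.t2 had no summit in the IDR list or in replicate 3, 6.774 in replicate 1 at 203 bp, and 17.46 in the full pooled list at 91 bp. F49E7.t3 had only a summit of 9.183 in replicate 1, 188 bp away, which lay in F49E7.t1. Within replicate 1 the signal at F38E9.t2 was 106 times the lowest of the set. That lowest summit lay outside F49E7.t2, nearer to F49E7.t1, and had rank 19352 of 29914. The ratio therefore does not compare summits inside both genes. Since the gene bodies are the same, the bases around them are shown, 50 upstream and 25 downstream in lower case with the gene in capitals (X:16461427-16461574 on the plus strand, X:1089788-1089935 on the plus strand and X:1089148-1089295 on the minus strand, WBcel235).
F38E9.t2: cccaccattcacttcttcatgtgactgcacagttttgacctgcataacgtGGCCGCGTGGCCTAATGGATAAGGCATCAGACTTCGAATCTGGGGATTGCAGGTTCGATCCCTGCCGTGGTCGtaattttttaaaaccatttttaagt
F49E7.t2: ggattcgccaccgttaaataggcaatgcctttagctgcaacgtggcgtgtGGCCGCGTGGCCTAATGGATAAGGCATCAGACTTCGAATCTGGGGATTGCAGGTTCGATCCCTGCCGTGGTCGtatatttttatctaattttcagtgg
F49E7.t3: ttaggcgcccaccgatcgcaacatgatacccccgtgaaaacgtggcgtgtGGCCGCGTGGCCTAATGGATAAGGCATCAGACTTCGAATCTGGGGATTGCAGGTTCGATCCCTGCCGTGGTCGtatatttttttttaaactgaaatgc
A run of at least 4 T followed each of the 3 genes. The unbound F49E7.t2 and F49E7.t3 shared the 12 bases next to the gene upstream and the 9 downstream, and each shared 2 and 2 with F38E9.t2. All 3 genes of the F49E7 cluster (X:1089173-1089910), F49E7.t3, F49E7.t1 and F49E7.t2, were unbound, and it was the only cluster of tRNA genes with an arginine gene in which no gene had an IDR summit. F49E7.t1 carries 2 extra bases between anticodon and B box and had only a summit of 9.183 in replicate 1, which lay within the gene. C36C9.t2 differs from F38E9.t2 by T27C alone and matched both box patterns, and it had no summit in any of the 3 lists. C34E11.t1, in an intron of C34E11.2 on the same strand, differs from F38E9.t2 by C3T, G9C, G24C, T27C and G49A and did not match the A box pattern. It had 58.23, 44.07 and 7.764, the lowest signal of the bound arginine genes, where the weakest IDR peak had 54.3.

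All 8 TCT genes were bound. Within 100 bp 7 had an IDR summit, as that of F47G6.t1 lay 126 bp upstream. The strongest in the IDR list was C15C6.t1, a single-copy sequence outside protein-coding genes, with 4117 in the IDR list, 3404 in replicate 1 and 741.8 in replicate 3, where F41D9.t1 was higher. Its IDR summit lay 29 bp beyond the gene. The commonest TCT sequence was carried by 5 genes, from F41D9.t1 (4045, 3209 and 816.3) to C04F2.t1 (1056, 861.9 and 219.5). The ratio of the highest to the lowest was 3.83 in the IDR list and 3.72 in each replicate, with the same genes at the ends. The 2 genes of the other repeated TCT sequence hardly differed. F41D9.t4, in an intron of the Rab GTPase-activating gene tbc-18 on the opposite strand, had 3649, 2983 and 641.5, and C11G10.t1, in an intron of the innexin gene unc-7 on the same strand, had 3619, 2970 and 726.6. Which of them was higher was not the same in both replicates.

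Of the 4 CCT genes, the 2 of identical sequence were bound strongly and the 2 single-copy genes were not bound. F28H6.t1 had the values given above, and F29C4.t1, in an intron of the collagen gene col-99 on the opposite strand, had 3721 in the IDR list, 3109 in replicate 1 and 691 in replicate 3. Y75D11A.t2 has 74 bases and is 12 edits from F28H6.t1. It had only a summit of 5.888 in replicate 1, and it was the only arginine tRNA gene without a run of TTTT within 50 bases downstream. Y102E9.t1, in an intron of wdr-4 on the opposite strand, has 86 bases and is nearer in sequence to the lysine tRNA gene F37A4.t1 (16 edits) than to any bound arginine gene (29 edits). It had only a summit of 11.34 in replicate 3, 161 bp away, and did not match the A box pattern. The human counterpart of wdr-4 encodes a subunit of a tRNA methyltransferase.

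The 2 CCG genes and the GCG gene had low or no signal. ZK380.t1 (CCG, outside) had 61.62 in the IDR list, 47.86 in replicate 1 and 10.64 in replicate 3, and its peak had rank 1645 of 1860. Y46G5A.t1 (CCG, 71 bases, in an intron of snrp-200, which encodes a spliceosomal helicase, on the same strand) is 4 edits from it and was the only arginine gene in which GTTCGANNC was not found. It had only a summit of 19.02 in replicate 1, within the gene. W05B2.t1 (GCG, 68 bases, in an intron of W05B2.2 on the same strand) had no summit in any list, and it is nearer to the glycine tRNA gene Y59A8B.t3 (19 edits) than to any bound arginine gene (24 edits). ZK380.t1 and the TCG gene C34E11.t1 were the only arginine genes with an IDR signal under 100.

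Gene length and copy number, which the choice of genes did not use, were set beside binding. Of the 37 arginine genes that are 73 bases long, 34 were bound, whereas 2 of the 7 with another length were. Among the other tRNA genes, 112 of 119 with 73 bases and 417 of 449 with another length were bound. An identical copy existed for 32 arginine genes, of which 30 were bound (93.8%) with a median signal of 3280. The remaining 12 had a sequence of their own, and 6 of them were bound (50%) with a median of 419.6. These 12 include all 7 genes of another length, so length and copy number overlap and were not separated. Among the other tRNA genes the shares were 96.6% (422 of 437) and 81.7% (107 of 131), with the same order but a smaller gap. Whether the gap differs between arginine and other tRNA genes was not tested.

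The motifs were searched on the gene strand within the gene, the A box in its first 30 bases. The A box pattern was found in 41 of 44 arginine genes (93.2%) and in 96.7% of all tRNA genes. GTTCGANNC was found in 43 (97.7%), against 72.1% of all tRNA genes, and both patterns in 40 (90.9%), against 69.8%. Each is a set pattern, so a gene without a match may still have the box. Of the 40 with both, 34 were bound, and 362 of 387 other tRNA genes with both were. The genes without the A box pattern were K01A12.t1, C34E11.t1 and Y102E9.t1, of which the bound ones had 123.8 and 58.23. Across all 612, the pattern was missing in 20 genes, of which 12 were bound with a median of 286.6. Of the 170 other tRNA genes without GTTCGANNC, 160 were bound, with a median of 2795. A run of TTTT began within 50 bases of the 3′ end in 43 arginine genes (97.7%) and in 98.9% of all tRNA genes. Of the 6 other tRNA genes without such a run, 3 were bound, with a median of 2993.

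Repetition of the surrounding sequence was set beside binding, as the percentage of unique words of 36 bases in the gene and 250 bp on either side. The median was 91.3% at bound arginine genes (78.1 to 97.2%) and 89.7% at unbound ones (60.9 to 100%). Among the other tRNA genes it was 90.5% at bound and 82.9% at unbound genes. The unbound genes W05B2.t1 and Y102E9.t1 had 100%, while Y75D11A.t2 had 60.9%, below every bound arginine gene. The ranges overlapped, and the part of repeated sequence in the missing peaks was not tested. Of the identical TCG genes, F38E9.t2 had 92.19%, F49E7.t2 89.03% and F49E7.t3 83.27%. Of the identical neighbours in unc-58, T06H11.t2 had 78.07% and T06H11.t3 85.69%. How reads that match several identical genes were placed is not given in the sources used here. Its part in the signal differences between such genes was not tested.

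Most summits lay at the 5′ part of the genes. In the IDR list, F09B9.t1, F33D11.t2, F41D9.t2 and C28A5.t2 had summits 60 to 64 bp from the 5′ end. Those of C15C6.t1 and K01A12.t3 lay beyond the 3′ end. Of the 36 IDR summits, 31 lay inside the gene, with a median of 12 bp from its 5′ end, quartiles of 10 and 26.25 bp and a range of -126 to 101 bp. Among the other tRNA genes 431 of 529 lay inside, with the same median of 12 bp. The median was 12 bp in replicate 1 and 10.5 bp in replicate 3, and 11 bp at the other tRNA genes in replicate 3. Over the 35 arginine genes with a summit in both replicates, the position differed by a median of 3 bp, by at most 10 bp at 24 genes and by more than 50 bp at 4. These 4 were F12D9.t5 (181 bp), C28A5.t2, K01A12.t3 and F33D11.t2, named after their values were seen. The A box of the common ACG sequence starts at base 8, close to this median. The summit farthest upstream was that of F47G6.t1 (TCT, in an intron of spe-15, a myosin gene, on the same strand), with 1555 at 126 bp in the IDR list and 1510 and 460.1 at 145 and 163 bp in replicates 1 and 3. The median width of the peaks was 445 bp (73 to 1204 bp), and 450 bp at the other tRNA genes.

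**Figure D3:**
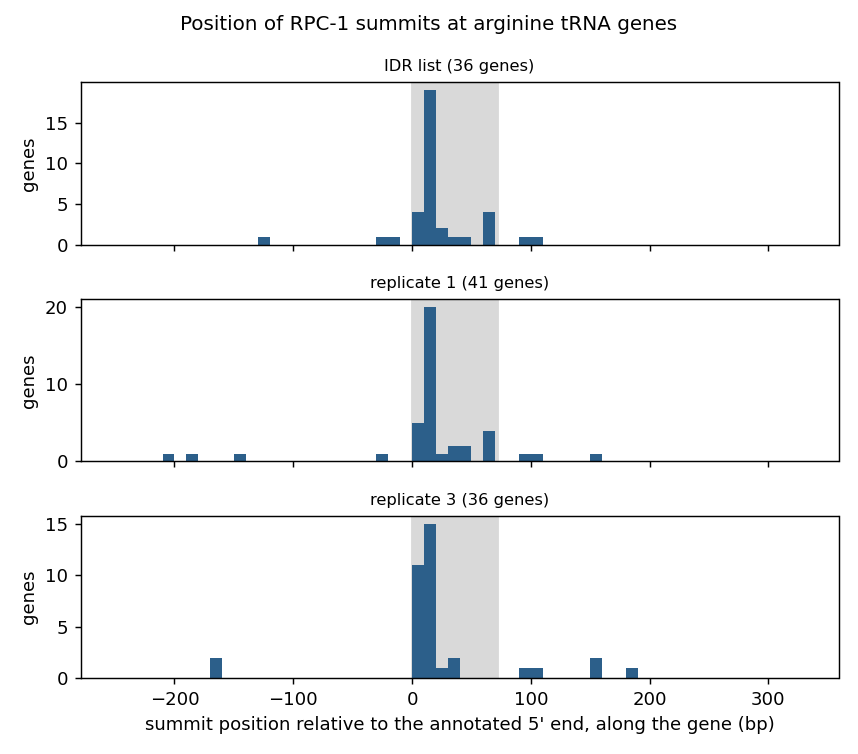
Position of the nearest summit along the gene (bp from the annotated 5′ end, negative upstream) at arginine tRNA genes in the IDR list, replicate 1 and replicate 3, counted in bins, with a grey band of the common gene length of 73 bp. Most summits fell just inside the 5′ end, with medians of 12, 12 and 10.5 bp.

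The replicates ordered the arginine tRNA genes with a summit in both lists alike. Over the 35 genes with a summit in both lists, Spearman's rho of the signals was 0.959, and over 534 other tRNA genes it was 0.943. The points share the libraries and, for identical genes, the sequence, so the values are descriptions. All 35 arginine genes also had an IDR summit, and IDR favours peaks whose ranks repeat between replicates. Genes with a summit in 1 list alone were left out. Part of this agreement was thus set by the choice of genes. The median absolute difference of percentile was 3.27 at arginine genes and 3.43 at the others. The largest shifts up in replicate 3 were those of T06H11.t3 (by 27 points), T06H11.t2 (71.6 to 85) and F47G6.t1 (33.8 to 45.6), and the largest shift down was that of F56F3.t1 (61.4 to 50.5).

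**Figure D4:**
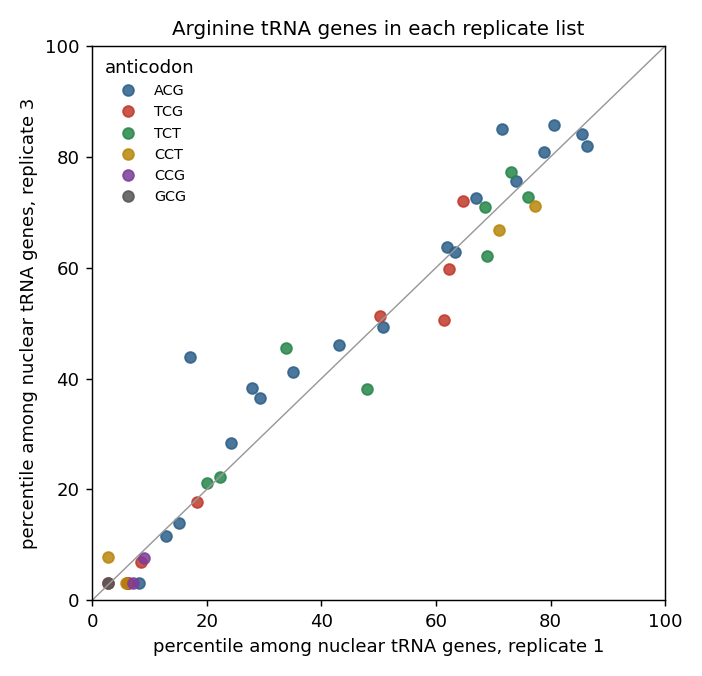
Percentile of each arginine tRNA gene among the 612 nuclear tRNA genes in replicate 1 (x axis) and replicate 3 (y axis), coloured by anticodon, with a line of equal percentiles; genes without a summit share the lowest percentile of that list. The points follow the line, and T06H11.t3, at 17 and 44, is farthest from it.

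The arginine tRNA genes lay in and around protein-coding genes much as the others did. Inside a protein-coding gene on the same strand there were 13 (29.5%), on the opposite strand 8 (18.2%), and outside 23 (52.3%), against 27.1%, 20.4% and 52.5% of the other tRNA genes. All 21 inside a gene lay in introns. Bound were 11 of 13 on the same strand (median signal 1555), 7 of 8 on the opposite strand (3488) and 18 of 23 outside (3223). The ranges were 58.23 to 4781, 123.8 to 4118 and 61.62 to 4854, so the 3 locations overlapped. Of the other tRNA genes, 145 of 154 on the same strand (2608), 107 of 116 on the opposite strand (2563) and 277 of 298 outside (3049) were bound. Besides those named above, the same-strand hosts were ceh-43 (a homeobox gene; C28A5.t2, 1360), src-1 (a tyrosine kinase gene; Y92H12A.t1, 1258), F42G10.1 and K01A12.3, and an opposite-strand host was the collagen gene col-54 (F33D11.t2, 1989).

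Chromosome X carried 27 of the 44 genes (61.4%), against 43.8% of the other tRNA genes. On X 22 of 27 were bound with a median of 2968, and on autosomes 14 of 17 with a median of 2571. Of the other tRNA genes, 234 of 249 on X were bound with a median of 3356, and 295 of 319 on autosomes with a median of 2505. Of the 8 unbound genes, 5 lie in a single stretch of X, X:1089173-1764327, whose ends were set by these genes after their values were seen. The stretch held 1 other arginine gene, the weakly bound ZK380.t1, and 4 tRNA genes of other products, all bound, with IDR signals of 564.9 to 5554. The 4 TCT genes on X had a median of 3634 (2455 to 4045) and the 4 on autosomes 1407 (1056 to 4117). These ranges overlapped. Of the TCG genes, 3 of 7 on X and 3 of 3 on autosomes were bound. The autosomal TCG genes had 3154 to 3488, above the 3 bound TCG genes on X, which had 58.23 to 2660. All autosomal TCG genes carry the commonest TCG sequence, whose copy on X, F17A2.t1, had 2660. The other TCG genes on X carry other sequences, so chromosome and sequence were not separated.

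Neighbouring tRNA genes were chained into clusters where gaps were at most 1000 bp. Of the arginine genes 14 lay in clusters, 11 of them bound with a median of 2319, and 30 did not, 25 of them bound with a median of 3291. At the other tRNA genes 209 of 222 in clusters were bound (median 2631) and 320 of 346 outside clusters (median 2977), with the same order of medians. The 36 bound genes had 36 different summits, in 34 peak intervals. In the cluster with the strongest gene, F08G5.t1 stood above the glutamine tRNA genes F08G5.t3 (3146, 2535 and 513.1) and F08G5.t2 (1731, 1189 and 102.8) in all 3 lists. C18A11.t2 had 2319, 1832 and 464.2, while the proline tRNA gene C18A11.t1, 749 bp away, had only a summit of 6.87 in replicate 3.

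In the cluster of K01A12, K01A12.t3 (in an intron of K01A12.3 on the same strand) had 3269, 2681 and 660.1. The same summit was also the nearest to the cysteine tRNA gene K01A12.t2. In the IDR list and in replicate 1 it lay between the genes, 26 bp from K01A12.t3, and in replicate 3 it lay inside K01A12.t3. In the cluster of F12D9, the cysteine tRNA genes F12D9.t6 and F12D9.t1 had IDR signals of 3047 and 5105, above the 715.5 of F12D9.t5. Clusters of 2 arginine genes alone were T06H11.t2 and T06H11.t3, described above, C28A5.t2 and C28A5.t1 (IDR signals of 1360 and 1691, 718 bp apart), and F41D9.t1 and F41D9.t2 (4045 and 2455, 337 bp apart), each of identical sequence. C28A5.t2 had 1133 and 320.3 in replicates 1 and 3 (the latter from a summit 109 bp away), C28A5.t1 1282 and 404.2, and F41D9.t2 2084 and 396.4. The order within each pair was the same in both replicates. Genes in introns or clusters thus included both strong and weak members, as did genes that stood alone.

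Annotated RNA genes of other kinds lay close by. A gene of biotype ncRNA lay within 250 bp of the IDR summit at 25 of 36 bound arginine tRNA genes. Genes of this biotype alone lay there at 327 of 529 other bound tRNA genes. Such a gene overlapped the tRNA gene itself at 25 of the 36 bound and at 4 of the 8 unbound arginine genes. The lists do not tell which of 2 overlapping genes a summit belongs to.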

How the data were processed

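RPC-1 peak lists of 2 samples, replicates 1 and 3 of 1 group, were analysed on ce11. Per the file headers, the authors deposited a list for each sample, a list of both samples pooled and an IDR list. The signal of each peak is the authors' own, deposited relative to a control alignment. At the bound arginine genes the signal in the IDR list equals that in the pooled list, so it is no separate measurement. The sources used here name no aligner or peak caller. The lists on ce10 were not used here.

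Genes came from the RefSeq annotation of WBcel235 (WormBase release 298), and biotypes were compared with Ensembl release 115. The nearest summit within 250 bp of the gene was used, and ties went to the summit nearer the gene's middle, then to the higher signal. Percentiles are mean ranks among 612 genes within a list. Python 3.11.15, numpy 2.4.6, scipy 1.17.1 and matplotlib 3.10.9 were used, and the scripts were tested on simulated data. No p-value was computed, because 1 group of 2 samples allows none. That the replicates are separate biosamples is per the labels.

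Values in all lists were given for the 5 arginine genes of highest IDR signal, every unbound one, the highest and lowest of each anticodon and of each set of identical genes, and those clustered with other tRNA genes. Other genes are named with their host or as pairs. Members and lists were chosen with earlier results of these data known. Alternatives changed the distance, the list or the assignment of summits, or left out a replicate.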

Additional observations from a re-analysis of the deposited data

How the results depend on the processing

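The number of bound arginine tRNA genes, 36, was 35 within 100 bp, 36 within 500 bp, 33 in the 930 strongest IDR peaks and 37 in the whole pooled list, which added F49E7.t2 with a signal of 17.46. It was 36 when each summit counted for its nearest tRNA gene alone, and 36 when the peak interval had to overlap the gene. Leaving out a replicate, by taking the 1860 strongest peaks of the other, gave 33 to 35. The median percentile of 41.1 ranged from 39.1 to 44.9 over the alternatives, and the SD between the lists of the 2 replicates was 3.99. The bound gene with anticodon CCG was lost in the 930 strongest peaks (0 of 2), and leaving out a replicate gave 0 to 1. This gene, ZK380.t1, has rank 1645 in the IDR list, so the shorter list cannot hold it. Of the 86 values computed under alternatives, these 2 moved, and the other 84 stayed within the spread between replicates or, for counts, close to the main count. No paired analysis was possible because there is 1 group and the results come from no test. Depth is unknown, so a gene without a summit is one without a listed peak, not one shown to lack RPC-1.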

Other observations

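The mitochondrial arginine tRNA gene, left out above, lies at M:4330-4384 and had a summit within 250 bp in all lists, with a signal of 1701 in the IDR list, 1307 in replicate 1 and 297.4 in replicate 3. RNA polymerase III is not known to transcribe mitochondrial genes, and the source of this signal was not tested.

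Promoters of 4 protein-coding genes of tRNA charging, tRNA use or tRNA splicing (500 bp before the annotated start to 250 bp after it) held no IDR summit. At rars-1, which encodes arginyl-tRNA synthetase, the list of replicate 1 had a summit of 6.42 (rank 20199) and the pooled list one of 8.804. At rtcb-1, which encodes the ligase of spliced tRNAs (all 44 arginine tRNA genes are annotated with 1 exon), the list of replicate 3 had a summit of 13.08 (rank 4080). The promoters of rars-2 and of ate-1, which encodes an arginyltransferase, had no summit in any list.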
